A study of Danio rerio with 12 samples.

Results

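Internal exons of at least 300 bp were followed through 3 exon-skipping tables that set zebrafish embryos homozygous mutant for snapc3, lsm8 or tnpo3 against shared wild-type controls. An event (a cassette exon with its flanking exons) was taken where the exon was at least 300 bp long and its junction reads averaged at least 10 per library in that table. This gave 2110 events of 42171 in all (5%), on 1896 exons of 1707 genes. Of them 1641 (1532 exons) were in the tnpo3 comparison, 1062 (978 exons) in the lsm8 comparison and 900 (842 exons) in the snapc3 comparison. For 587 of them these conditions were met in all 3 comparisons. A further 82 long events fell below the read minimum.

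The study followed zebrafish mutants in factors of pre-mRNA processing that came out of genetic screens on T lymphocyte development. RNA of whole embryos was sequenced as ribosomal RNA-depleted total RNA in 12 libraries, 3 in each of 4 groups. The snapc3-/- embryos were all of mixed background A, the lsm8-/- embryos all of mixed background B and the tnpo3-/- embryos all of mixed background C. The wild-type controls had 1 library of each background, so that genotype and background cannot be told apart within a comparison. The sources used here do not give the kind of mutation, the stage or the number of embryos per library. Nothing states that the libraries of a group came from separate embryos, so that p-values measure only the spread between these libraries.

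Splice sites in vertebrates are largely recognised in pairs across an exon, and SR proteins bound within the exon help to hold the pair together. A long exon sets its splice sites far apart. Tnpo3 is the import receptor that carries SR proteins into the nucleus, Lsm8 belongs to the protein ring on the U6 small nuclear RNA, and Snapc3 is a subunit of the complex that starts transcription of small nuclear RNA genes.

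The long exons had a median length of 546.5 bp, quartiles of 375 and 842 bp and a maximum of 9085 bp. By length, 834 exons had 300 to under 500 bp, 713 had 500 to under 1000 bp and 349 had 1000 bp or more. In 45.5% of them the length was a multiple of 3. The 12 libraries held between 12768785 and 22994665 junction reads over the events of a table that passed the read minimum, and between 240127 and 536362 on the long exons. Both ends of the first range are control libraries, counted over the events of different comparisons, so these ranges do not show depth. Over the 587 events met in all 3 comparisons, reads numbered 136128 to 172256 in lsm8 libraries and 173835 to 204573 in control libraries. They numbered 176635 to 196972 in snapc3 libraries and 180132 to 200552 in tnpo3 libraries. Inclusion was computed in each library as the share of inclusion among both forms, after each form's reads were divided by the form length given in the tables. These lengths do not grow with the exon: they were 120 for inclusion and 60 for skipping in 83.0% of the events (1752). In the authors' deposited tables of gene expression, tnpo3 was lower in tnpo3 mutants (log2 fold change −1.51) and snapc3 lower in snapc3 mutants (−1.39), while lsm8 was higher in lsm8 mutants (2.87).

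Long exons had their lowest mean inclusion in tnpo3 mutants. Over the 587 events that all 3 tables held, the 3 tnpo3 libraries had a mean inclusion of 83.6%, 83.6% and 83.9%, the lsm8 libraries 87.1%, 87.4% and 87.1%, the snapc3 libraries 87.4%, 87.4% and 88.0%, and the control libraries 87.8%, 88.3% and 88.1%. Every tnpo3 library lay below every library of the other groups. The lsm8 libraries all lay below the controls too, and the snapc3 libraries overlapped them. The means were 83.7 ± 0.164% in tnpo3 mutants, 87.2 ± 0.149% in lsm8 mutants, 87.6 ± 0.375% in snapc3 mutants and 88.1 ± 0.232% in controls (SD, n = 3 libraries each). Over 12246 shorter exons of the same tables the means were 86.4% in tnpo3 mutants, 86.7% in lsm8 mutants, 87.0% in snapc3 mutants and 87.6% in controls. Since whole embryos were sequenced, fewer cells of a type that includes an exon and less inclusion per cell cannot be told apart here.

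The lower mean in tnpo3 mutants was spread over many exons. Inclusion was below 90% for 33.1 ± 0.688% of the 587 events in tnpo3 mutants, 25.5 ± 1.21% in lsm8 mutants, 22.5 ± 1.55% in snapc3 mutants and 22.1 ± 0.857% in controls (SD, n = 3 libraries each). At least 1 skipping read was present for 62.4%, 62.7% and 62.4% of them in the tnpo3 libraries, against 47.9%, 49.4% and 54.2% in the control libraries. Here too the libraries of both groups were apart.

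**Figure D1:**
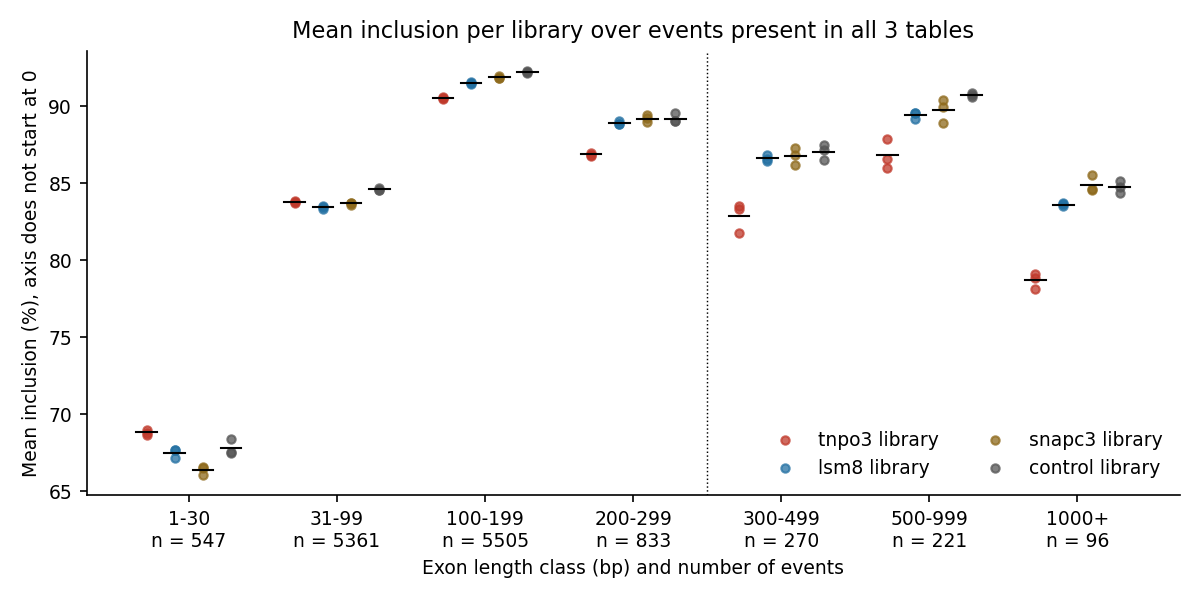
Mean inclusion (percent, axis not starting at 0) of the events held by all 3 tables, by exon length class in bp, with 1 point per library, a bar at each group's mean and a dotted line at 300 bp. In the classes of 300 to under 500, 500 to under 1000 and 1000 bp or more the tnpo3 means (82.9%, 86.8% and 78.7%) lie below the control means (87.1%, 90.8% and 84.8%) by more than the spread of the libraries.

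Among the shared events the tnpo3 difference was largest in the longest of 7 length classes. For exons of 300 to under 500 bp the mean inclusion was 82.9 ± 0.963% in tnpo3 mutants and 87.1 ± 0.518% in controls (SD, n = 3 libraries each; 270 events). For 500 to under 1000 bp it was 86.8 ± 0.954% in tnpo3 mutants and 90.8 ± 0.129% in controls (221 events). For 1000 bp or more it was 78.7 ± 0.483% in tnpo3 mutants and 84.8 ± 0.372% in controls (96 events). All 3 of these differences (−4.20, −3.94 and −6.05 points) lay beyond that of the 200 to under 300 bp class, which was −2.33 points, and exons of 30 bp or less had a difference of 1.02 points. In the same 3 long classes the lsm8 differences were −0.43, −1.33 and −1.15 points and the snapc3 differences −0.29, −0.98 and 0.15 points.

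Single events were tested with limma on the log2 odds of inclusion, over all events of a table. A call needed both a Benjamini-Hochberg adjusted p under 0.05 and mean inclusions at least 10 percentage points apart. In tnpo3 mutants 133 of the 1641 long events were called (8.10%), against 2.18% of all 27050 events tested and 1.80% of the shorter ones. Inclusion was lower in tnpo3 mutants for 129 of them, a direction called for 2.07% of all events, and higher for 4, called for 0.115% of all events. The median difference was −1.72 points over the long events and −0.55 points over the shorter ones. With the FDR of the authors' deposited table in place of limma's adjusted p, at the same 10 points, 149 long events passed, against 3.10% of all events, and on limma's adjusted p alone 239, against 6.26%. In 324 long events (19.7%) every tnpo3 library lay below every control library, against 10.4% of all events. In 19 every tnpo3 library lay above, which 1.30% of all events did.

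**Figure D2:**
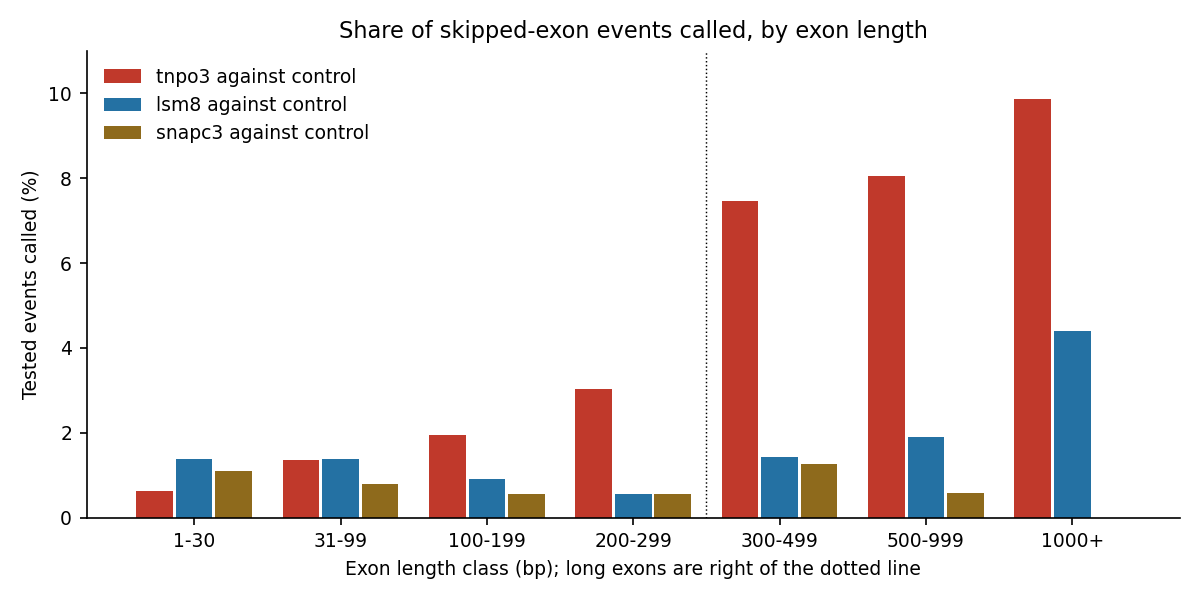
Share of the tested events that were called (percent), by exon length class in bp, for each mutant against control. In tnpo3 mutants the share is 0.627% for exons of 30 bp or less and 9.86% for exons of 1000 bp or more.

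The share of called events in tnpo3 mutants was 0.627% for exons of 30 bp or less, 1.36% for 31 to under 100 bp, 1.95% for 100 to under 200 bp and 3.05% for 200 to under 300 bp. It was 7.45% for 300 to under 500 bp (53 of 711), 8.05% for 500 to under 1000 bp (52 of 646) and 9.86% for 1000 bp or more (28 of 284). Each class from 31 bp upward had a larger share than the one below it. At the limit of 300 bp itself, 5 of 80 events with exons less than 10 bp above it were called in tnpo3 mutants, and 1 of 87 with exons at most 10 bp below it.

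Every deposited event has at least 1 read of each form, so an exon skipped in no control must show lower inclusion in the mutant. The median differences and the counts of non-overlapping groups given above include such events. Skipping reads were seen in tnpo3 mutants and in no control for 1088 long events (66.3%), against 53.2% of the shorter ones. They were seen in controls alone for 123 long events (7.50%), against 14.4% of the shorter ones. Among the 553 long events with a skipping read in at least 1 control, 49 were called (8.86%), against 2.18% of such shorter events. Their median difference was −1.10 points, against 0.06 points in such shorter events. Within that subset the share did not climb through the long classes: it was 12.3% for 300 to under 500 bp, 5.37% for 500 to under 1000 bp and 6.90% for 1000 bp or more. In the events of form lengths 120 and 60 the share called was 7.51% (102 of 1358), and in the others 11% (31 of 283).

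A quasi-binomial model fitted to each event alone called 0 after adjustment, with a smallest adjusted p of 0.288. Its unadjusted p was below 0.05 in 130 of the 133 and in 366 long events in all, where limma had 453. The 366 are 22.3% of the long events, against 11.5% of all events. Without division by form length 74 long events were called. That division leaves an event's log2 odds change as it is, but alters its difference in points. In 1 fit of all 4 groups, which covers the shared events alone, 45 were called, where the fit of the tnpo3 table called 53 of them. The share of all events called is not given for these refits.

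**Figure D3:**
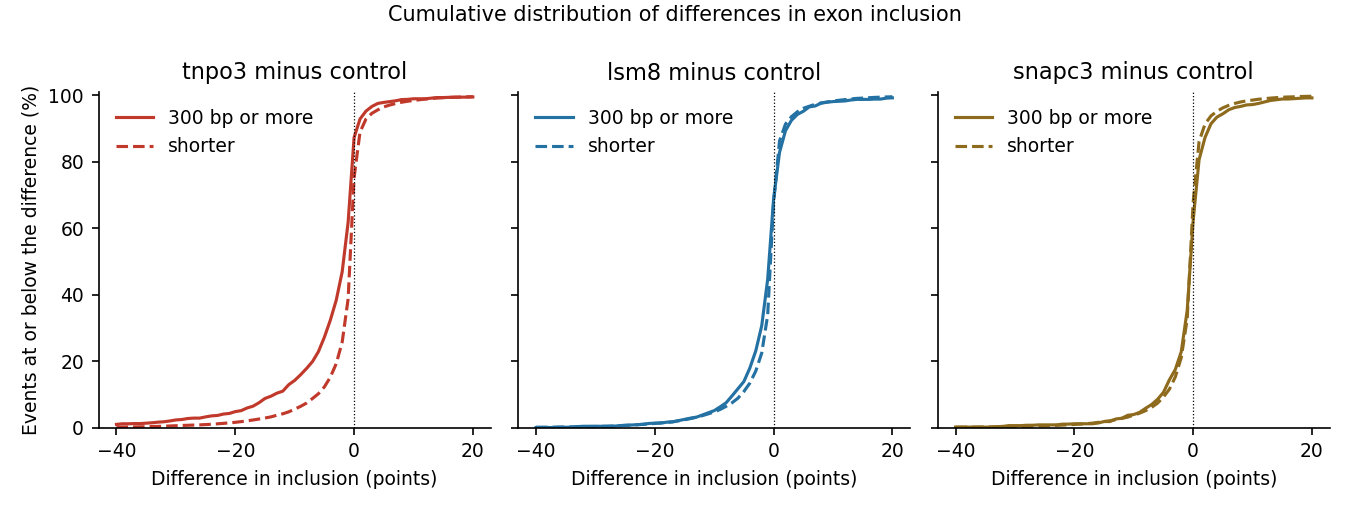
Cumulative share of events (percent) at or below a given difference in mean inclusion, mutant minus control in percentage points, for exons of at least 300 bp and for shorter exons in each mutant. The curve of long exons lies furthest from that of shorter exons in tnpo3 mutants, where the medians are −1.72 and −0.55 points. Events without a control skipping read, which can only be lower in the mutant, are included.

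Like most long exons, those called in tnpo3 mutants were included almost always in controls. The 129 events with lower inclusion lay on 126 exons of 119 genes. Control inclusion was 90% or more in 121 of the 126 exons and 100% in 82 (65.1%), against 66.8% of the long exons not called, and in 123 exons the libraries of both groups did not overlap. Their differences ran from −74.8 to −10.1 points with a median of −18.8. Inclusion was lower by 20 points or more in 56, and below 50% in tnpo3 mutants in 10. Shorter exons called lower were alike in this: in 407 of 426 the groups did not overlap. Their median difference was −19.9 points, with 212 lower by 20 points or more. The called long exons had a median length of 557.5 bp, against 545.5 bp for long exons that were not called. Their flanking introns had medians of 2169 and 2151.5 bp, against 2815 and 2572.5 bp, and 42.1% had a length that is a multiple of 3, against 46.5%.

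The exon with the smallest adjusted p lay in si:ch211-198m17.1, an unnamed gene. It spans 2148 bp on chromosome 3 (38717446 to 38719593 in build Zv9, minus strand). Its inclusion was 35.6%, 34.0% and 31.2% in tnpo3 libraries, against 100% in each of the 3 control libraries. Skipping reads numbered 34, 30 and 34 in tnpo3 libraries and 0 in every control, beside 177, 134 and 143 inclusion reads in controls. The groups were far apart, by −66.4 points (limma log2 odds change −8.17, SE 0.77, adjusted p = 2.17e-06). The exon of SPTBN5, which in human encodes a beta spectrin of the membrane skeleton, has 1047 bp (chromosome 17, 29187081 to 29188127). Its inclusion was 49.4%, 32.2% and 27.5% in tnpo3 libraries and 100% in every control, a difference of −63.6 points (limma adjusted p = 4.78e-06). Again no tnpo3 library came near a control.

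The adamts13 gene encodes the protease that trims von Willebrand factor. Inclusion of its 355 bp exon (chromosome 8, 47286545 to 47286899) was 20%, 30% and 51.5% in tnpo3 libraries, against 100%, 98.5% and 100% in controls. The tnpo3 libraries scattered widely but all stayed below the controls (−65.7 points, limma adjusted p = 2.39e-05). Their values rest on only 3, 6 and 17 inclusion reads beside 6, 7 and 8 skipping reads. SLC22A16, in human a carnitine and organic cation transporter, had a 474 bp exon (chromosome 20, 31315339 to 31315812) included at 52.0%, 82.9% and 68.0% in tnpo3 libraries, against 100%, 99.2% and 100% in controls (−32.1 points, limma adjusted p = 0.000107). A 375 bp exon of zgc:174906 was included at 66.4%, 59.0% and 74.6% in tnpo3 libraries and at 100% in every control. All of these groups were apart.

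The rev3l and eme1 exons were also among the 12 of smallest adjusted p. The rev3l gene encodes the catalytic subunit of DNA polymerase zeta. Its 857 bp exon was included at 83.1%, 76.6% and 78.9% in tnpo3 libraries and at 100% in every control (−20.5 points, limma adjusted p = 8.49e-05). The eme1 gene encodes a partner of the Mus81 endonuclease. Its 728 bp exon was included at 27.5%, 57.8% and 30.7% in tnpo3 libraries and at 100% in every control (limma adjusted p = 6.44e-05), from a mean of only 28.5 reads per library. For both exons the groups did not overlap.

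Smaller differences were resolved where reads were many. The c9 gene encodes the last component of the complement cascade. Its 459 bp exon, with a mean of 1560 reads per library, was included at 88.0%, 87.6% and 91.1% in tnpo3 libraries, against 100%, 99.7% and 100% in controls (−11.0 points, limma adjusted p = 7.62e-05). A 404 bp exon of si:dkey-261h17.1 was included at 84.4%, 87.7% and 87.3% in tnpo3 libraries and at 100% in every control. The 435 bp exon of mrps31, a protein of the small mitochondrial ribosome subunit, was included at 82.9%, 84.2% and 86.5% in tnpo3 libraries and at 100% in every control. CIART, in mammals a repressor of the circadian clock, had a 484 bp exon included at 81.2%, 80.5% and 76.2% in tnpo3 libraries and at 100% in every control. In these 4 exons the tnpo3 libraries lay close together and clear of the controls.

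Some of the largest differences rest on short form lengths. In LRIF1, in human a partner of nuclear receptors, a 1636 bp exon was included at 16.6%, 20.1% and 39.0% in tnpo3 libraries and at 100% in every control, the largest called difference at −74.8 points (limma adjusted p = 0.000939). Its skipping form has a length of 1, so that 7, 3 and 2 skipping reads set those values beside 85, 46 and 78 inclusion reads, and with a pseudocount of 2 the adjusted p was 0.0545. A 662 bp exon of si:dkey-222b8.4 was included at 30.6%, 37.7% and 19.3% in tnpo3 libraries and at 100% in every control (−70.8 points, limma adjusted p = 1.73e-05), with form lengths of 81 and 21. The authors' deposited table gives an FDR of 1 for these 2 exons and for eme1, whose form lengths are 93 and 33. It gives the same FDR for called exons with the usual form lengths of 120 and 60, such as those of zgc:154006, foxn4 and sec24c. The 601 bp exon of SYN2, in mammals a synaptic vesicle protein, had 33.3%, 0% and 0% in tnpo3 libraries, against 100%, 81.2% and 100% in controls. It did not pass limma's test (adjusted p = 0.0965), with 15.5 reads per library on average, while the authors' deposited table gives it an FDR of 1.66e-07. Against the other mutants limma called it, by −88.9 points from snapc3 (adjusted p = 0.00404) and −80.0 points from lsm8 (adjusted p = 0.0076).

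**Figure D4:**
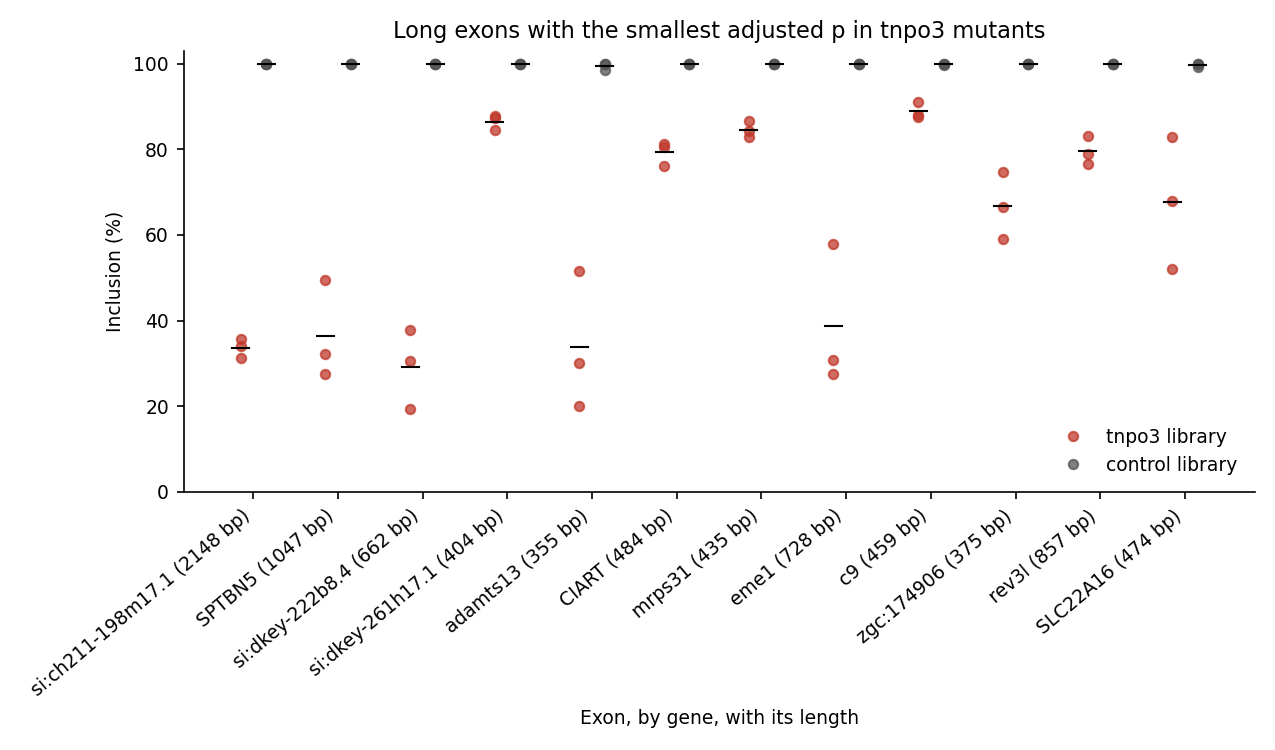
Inclusion (percent) of the 12 long exons with the smallest adjusted p in tnpo3 mutants, with 1 point per library, tnpo3 libraries left of the control libraries and a bar at each group's mean. The control points sit between 98.5% and 100%, and every tnpo3 point lies below them.

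SR proteins and splicing regulators held 7 long exons of 6 genes in the tnpo3 table, of which 1 was called lower and 0 higher. Over all long exons counted once, 122 of 1532 were called lower and 3 higher. That share is the one to set beside this list and each gene set below. The median difference of the 7, with both overlapping tra2a exons among them, was −9.20 points, against −1.71 over all long exons. In mammals many genes of this family carry an exon whose inclusion ends the reading frame early; whether the exons below do so was not analysed here. The called exon has 398 bp and lies in srsf3a, which encodes an SR protein (chromosome 6, 41013078 to 41013475). Its inclusion was 3.70%, 3.46% and 2.32% in tnpo3 libraries, against 20.6%, 15.8% and 17.9% in controls, with no overlap (−14.9 points, limma adjusted p = 0.00227). The tra2a gene encodes an SR-like activator of splicing. Its exons of 311 and 324 bp share their start on chromosome 19 (20660951) and overlap, so that they are not separate observations.

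The 311 bp form of tra2a was included at 0.0944%, 0.398% and 0.846% in tnpo3 libraries, against 6.04%, 10.1% and 12.8% in controls. The 324 bp form was included at 0.189%, 0% and 0.425% in tnpo3 libraries, against 4.60%, 9.82% and 14.1% in controls. Both had adjusted p values below the threshold (limma, 0.00014 and 0.000344) but differences of −9.20 and −9.31 points, short of 10. Without the control library in position 1 of the tables the differences were −11.0 and −11.8 points. The 1173 bp exon of prpf4ba, a kinase of the spliceosome, was included at 91.9%, 89.2% and 89.2% in tnpo3 libraries and 100% in every control. It passed on adjusted p (limma, 9.36e-05) but differed by −9.89 points, and by −10.8 points without the tnpo3 library in position 1. The 651 bp exon of srrm2, a spliceosomal matrix protein, was included at 89.3%, 94.5% and 94.4% in tnpo3 libraries and 100% in every control, a difference of −7.28 points (limma adjusted p = 0.0023). Exons of srsf5a and sfswap did not pass the test. The exons of this list that were not called are named because their values had been seen.

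Among chromatin regulators 3 of 18 long exons (14 genes) were called lower in tnpo3 mutants and 0 higher. The list's median difference was −2.20 points. The kmt2cb gene encodes a histone H3 lysine methyltransferase and held 2 of them. Its 1147 bp exon was included at 82.6%, 78.5% and 89.8% in tnpo3 libraries and its 1851 bp exon at 82.5%, 93.2% and 91.3%, with both at 100% in every control (limma adjusted p = 0.000991 and 0.002). The difference of the longer exon was −11.0 points, and −7.77 points without the tnpo3 library in position 1. The 1458 bp exon of setd2, another histone methyltransferase, was included at 97.6%, 88.3% and 81.7% in tnpo3 libraries and at 100% in every control (−10.8 points, limma adjusted p = 0.00684). Its call ended without the tnpo3 library in position 2 (adjusted p = 0.0509) or in position 3 (−7.09 points).

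Of 17 long exons of cytoskeletal linkers and scaffolds (11 genes) 2 were called lower in tnpo3 mutants and 0 higher, with a median of −2.84 points. The 507 bp exon of epb41a, a protein 4.1 of the membrane skeleton, was included at 83.8%, 73.7% and 86.4% in tnpo3 libraries and at 100% in every control (limma adjusted p = 0.000119). The 312 bp exon of map2, a microtubule-associated protein of neurons, was included at 66.7%, 40% and 63.6% in tnpo3 libraries, against 91.7%, 88.6% and 85.7% in controls (−31.9 points, limma adjusted p = 0.0237). In both exons the groups were apart, but the map2 call ended without the tnpo3 library in position 2 (adjusted p = 0.118) or in position 3 (0.0558).

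Among neural adhesion and synaptic genes 2 of 10 long exons (9 genes) were called lower in tnpo3 mutants and 0 higher, with a median of −2.31 points. The 519 bp exon of pcloa, a scaffold of the presynaptic active zone, was included at 70.2%, 46.8% and 47.7% in tnpo3 libraries and at 100% in every control (−45.1 points, limma adjusted p = 0.000149). The 327 bp exon of agrn, which encodes the synapse organiser agrin, was included at 71.7%, 77.6% and 71.6% in tnpo3 libraries, against 96.8%, 97.1% and 90.7% in controls (−21.3 points, limma adjusted p = 0.0272). Its libraries did not overlap, but the call ended without the control library in position 1 (adjusted p = 0.0529) or 2 (0.0779), or any 1 tnpo3 library (0.0654 to 0.0967).

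Of 11 long exons of extracellular matrix genes (7 genes) 1 was called lower in tnpo3 mutants and 0 higher, with a median of −0.87 points. This was a 594 bp exon of col6a3, a chain of collagen VI, at 90.7%, 82.9% and 81.0% in tnpo3 libraries and 100% in every control (limma adjusted p = 0.00135). Of 3 long exons of zinc finger and other transcription factors (3 genes; median −9.39 points) 1 was called lower, the 564 bp exon of zeb1a, at 81.5%, 92.8% and 86.1% in tnpo3 libraries and 100% in every control (limma adjusted p = 0.00298). Genes with ZNF in their symbol held 17 long exons, 5 of them called lower, with a median of −1.80 points, against −1.71 over all long exons. The DNA repair list held 7 long exons of 5 genes and 0 called by limma in either direction, with an unadjusted p below 0.05 in 0 by limma and in 1 by the quasi-binomial model, and a median of −6.06 points; rev3l and eme1 are not on it.

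Calls of higher inclusion in tnpo3 mutants were few. With each exon counted once, by its event of most reads, 3 were called higher, in si:ch73-332k15.1, rbm4.1 and zgc:66474. The 870 bp exon of rbm4.1, an RNA-binding regulator of splicing, averaged 85.3% in tnpo3 mutants and 56.0% in controls (limma adjusted p = 0.0268). The 540 bp exon of zgc:66474 averaged 90% in tnpo3 mutants and 63.3% in controls (limma adjusted p = 0.0487). The rbm4.1 and zgc:66474 exons were picked after their values were seen.

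In lsm8 mutants 23 of 1062 long events were called (2.17%), against 1.16% of all 22499 events and 1.11% of the shorter ones. Inclusion was lower in 20 of them, a direction called for 1.06% of all events, and higher in 3, called for 0.0933%. With the FDR of the authors' deposited table and 10 points 28 long events passed (2.64%), against 2.11% of all events. On limma's adjusted p alone 67 passed (6.31%), against 4.30%. The groups were apart, with lsm8 lower, in 122 long events (11.5%), against 8.09% of all events, and with lsm8 higher in 25, against 1.57% of all events. By length the share called was 1.43% for 300 to under 500 bp, 1.91% for 500 to under 1000 bp and 4.39% for 1000 bp or more, against 0.57% for 200 to under 300 bp. The median difference was −0.75 points in long and −0.38 points in shorter events. It was 0.12 points over the 589 long events whose exon skipping all 3 tables list, and 0.34 points where a control had a skipping read. Shorter events had medians of 0.05 and 0.15 points in those subsets. Of the 546 long events with such a control read 9 were called (1.65%), against 1.26% of such shorter events. The other 14 calls had no control skipping read. In that subset of 546 the share was 1.52%, 1.03% and 3.41% in the 3 long classes. It was 0.99% for 200 to under 300 bp where a control had a skipping read.

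The exons with lower inclusion in lsm8 mutants were long and lay between long introns. They had a median length of 847 bp and flanking introns of 10537 and 21127 bp, against 541 bp, 3966 and 3496 bp for long exons that were not called; none of these features was tested. Controls included 14 of the 20 (70%) at 100%, against 47.6% of the long exons not called. An exon at 100% in every control can only be called lower. A refit without any 1 lsm8 library called 13 events, which need not be the same ones each time. With each exon counted once, 5 of 20 called exons (lower or higher) were called whichever library was left out. The quasi-binomial model called 0 after adjustment, with an unadjusted p below 0.05 in 22 of the 23 and in 153 long events in all, where limma had 228. The 153 are 14.4% of the long events, against 9.09% of all events. Without division by form length limma called 8. For this refit and those without 1 library the share over all events is not given.

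The smallest adjusted p belonged to the 755 bp exon of nlgn4a, a neuroligin of synapses (chromosome 1, 32080354 to 32081108, plus strand). Its inclusion was 90.3%, 84.7% and 79.6% in lsm8 libraries and 100% in every control, with 16, 24 and 46 skipping reads in lsm8 libraries. The groups were apart (−15.1 points, limma log2 odds change −6.39, SE 0.81, adjusted p = 8.26e-05). The 2643 bp exon of kank1, an adaptor of focal adhesions, was included at 92.9%, 86.3% and 86.0% in lsm8 libraries and at 100% in every control (limma adjusted p = 0.000326). The 2681 bp exon of fgd5a, in human an exchange factor for Cdc42, was included at 79.8%, 89.9% and 85.9% in lsm8 libraries and at 100% in every control (limma adjusted p = 0.00134).

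The 1488 bp exon of bach2b, a transcription factor known in mammals from lymphocytes, was included at 80.7%, 81.4% and 86.2% in lsm8 libraries and at 100% in every control (−17.2 points, limma adjusted p = 0.00383). The 3334 bp exon of setbp1, which encodes a binding partner of the SET protein, was included at 90.9%, 95.7% and 82.4% in lsm8 libraries and at 100% in every control (limma adjusted p = 0.00186). Its difference of −10.3 points was −6.68 points without the lsm8 library in position 3. The 861 bp exon of ZNF609, a zinc finger protein, was included at 98.2%, 77.5% and 88.8% in lsm8 libraries and at 100% in every control. That call ended without the lsm8 library in position 2 (−6.48 points) or 3 (adjusted p = 0.0667).

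The 931 bp exon of cspg5a, a brain proteoglycan, and the 1502 bp exon of phldb1b averaged 86.8% and 87.9% in lsm8 mutants and 100% in controls. Both fell short of 10 points without the lsm8 library in position 2 (−7.96 and −9.71 points). The 871 bp exon of C24H3orf58 was included at 88.4%, 89.4% and 88.1% in lsm8 libraries, against 100%, 99.4% and 98.3% in controls, and its call ended without the control library in position 1 (adjusted p = 0.0578) or the lsm8 library in position 1 (0.0586). A 363 bp exon of hmcn1, a basement membrane protein, was rarely used in any group: 0%, 1.96% and 0% in lsm8 libraries, against 8.70%, 16.3% and 23.1% in controls (limma adjusted p = 0.000905), with 23.5 reads per library on average.

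The lists gave no called exon in lsm8 mutants. The called nlgn4a and bach2b exons lie in genes that are on none of the lists. In the 7 lists together limma called 0 of 43 long exons, where it called 20 of all 978 long exons counted once. An unadjusted p was below 0.05 in 7 of the 43 by limma and in 7 by the quasi-binomial model. The medians ran from −4.12 points (neural adhesion and synaptic genes) to 2.17 points (DNA repair), against −0.73 over all long exons. The ZNF symbols had 1 called of 8. Of the exons called higher, chosen here after their values were seen, the 3144 bp exon of EHBP1L1 was included at 41.8%, 47.1% and 38.2% in lsm8 libraries, against 14.3%, 11.6% and 24.4% in controls (limma adjusted p = 0.0450). The 391 bp exon of cdc14aa, a phosphatase, was included at 33.3%, 20% and 27.3% in lsm8 libraries, against 10.7%, 3.0% and 12% in controls (limma adjusted p = 0.0485). Its lsm8 values rest on only 2, 2 and 6 inclusion reads beside 2, 4 and 8 skipping reads, and the authors' deposited table gives it an FDR of 0.164.

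In snapc3 mutants 7 of 900 long events were called (0.778%), against 0.690% of all 22314 events and 0.686% of the shorter ones, so that the share of long exons was near the background. Inclusion was lower in 6, a direction called for 0.650% of all events, and higher in 1, called for 0.0403%. With the FDR of the authors' deposited table and 10 points 10 long events passed, against 1.42% of all events, and on limma's adjusted p alone 14, against 2.62%. The groups were apart, with snapc3 lower, in 47 long events (5.22%), against 6.35% of all events, and with snapc3 higher in 17, against 1.12%. Of 164 long events with exons of 1000 bp or more limma called 0, with an unadjusted p below 0.05 in 18 by limma and in 13 by the quasi-binomial model, and 1 passed by the FDR of the authors' deposited table and 10 points. The median difference was −0.39 points in long and −0.37 points in shorter events. Over the events of all 3 tables it was 0.13 points in long and 0.06 points in shorter ones.

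Counted once per exon, 6 long exons were called in snapc3 mutants. SLC22A16 was called whichever library was left out: its 474 bp exon was included at 85.2%, 85.0% and 91.7% in snapc3 libraries, against 100%, 99.2% and 100% in controls (−12.5 points, limma adjusted p = 0.002). The 519 bp exon of pcloa was included at 78.7%, 94.2% and 79.3% in snapc3 libraries and at 100% in every control (limma adjusted p = 0.038). It was lost without the control library in position 2 (adjusted p = 0.0824) or the snapc3 library in position 1 (0.133) or 3 (0.131).

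The 312 bp exon of map2 was included at 47.2%, 50% and 70.0% in snapc3 libraries, against 91.7%, 88.6% and 85.7% in controls (−32.9 points, limma adjusted p = 0.0387). It was lost without control library 1 or 2 of the table (adjusted p = 0.0572 and 0.0535) or snapc3 library 1 or 2 (0.140 and 0.114). The 905 bp exon of tmem115, a Golgi membrane protein, was included at 89.5%, 84.1% and 90.4% in snapc3 libraries, against 98.9%, 100% and 99% in controls (limma adjusted p = 0.029). That call ended without the control library in position 2 (adjusted p = 0.146) or any 1 snapc3 library (0.0692 to 0.0967).

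The quasi-binomial model called 0 long events in snapc3 mutants after adjustment, with an unadjusted p below 0.05 in all 7 called by limma and in 57 long events in all, where limma had 94. The 57 are 6.33% of the long events, against 7.37% of all events. Without the control library in position 1 limma called 17, without the snapc3 library in position 3 it called 4, and without division by form length 2. For these refits the share over all events is not given.

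The lists held 41 long exons in the snapc3 table, where 5 of all 842 long exons counted once were called lower. Of them 1 of 13 of cytoskeletal linkers (map2) and 1 of 8 of neural genes (pcloa) were called lower, and limma called 0 of the 20 in the other 5 lists, where 2 had an unadjusted p below 0.05 by limma and 1 by the quasi-binomial model. The 314 bp exon of atxn7l2a was included at 0% in every snapc3 library, against 3.70%, 18.2% and 18.8% in controls (limma adjusted p = 0.0121), from 14.8 reads per library. It was lost without the snapc3 library in position 3 (adjusted p = 0.0757), and the authors' deposited table gives it an FDR of 0.174. The 808 bp exon of srsf1b, an SR protein, was included at 86.9%, 92.1% and 96.7% in snapc3 libraries and at 100% in every control. Its adjusted p was below the threshold (limma, 0.0127), but its difference was −8.12 points, and −10.5 points without the snapc3 library in position 3.

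Few long exons were called in more than 1 mutant. Of the exons called in any mutant, 116 were called in tnpo3 mutants alone, 16 in lsm8 mutants alone and 1 in snapc3 mutants alone, with 5 called in snapc3 and tnpo3 mutants and 4 in lsm8 and tnpo3 mutants. Since the comparisons share their controls, these counts are given without a test. The tables of snapc3 and lsm8 held 60 and 61 of the exons called in tnpo3 mutants. The 60 had a median difference of −0.71 points in snapc3 mutants, with 5 lower by 10 points or more, and the 61 had a median of −1.08 points in lsm8 mutants, with 8 lower by 10 points or more.

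**Figure D5:**
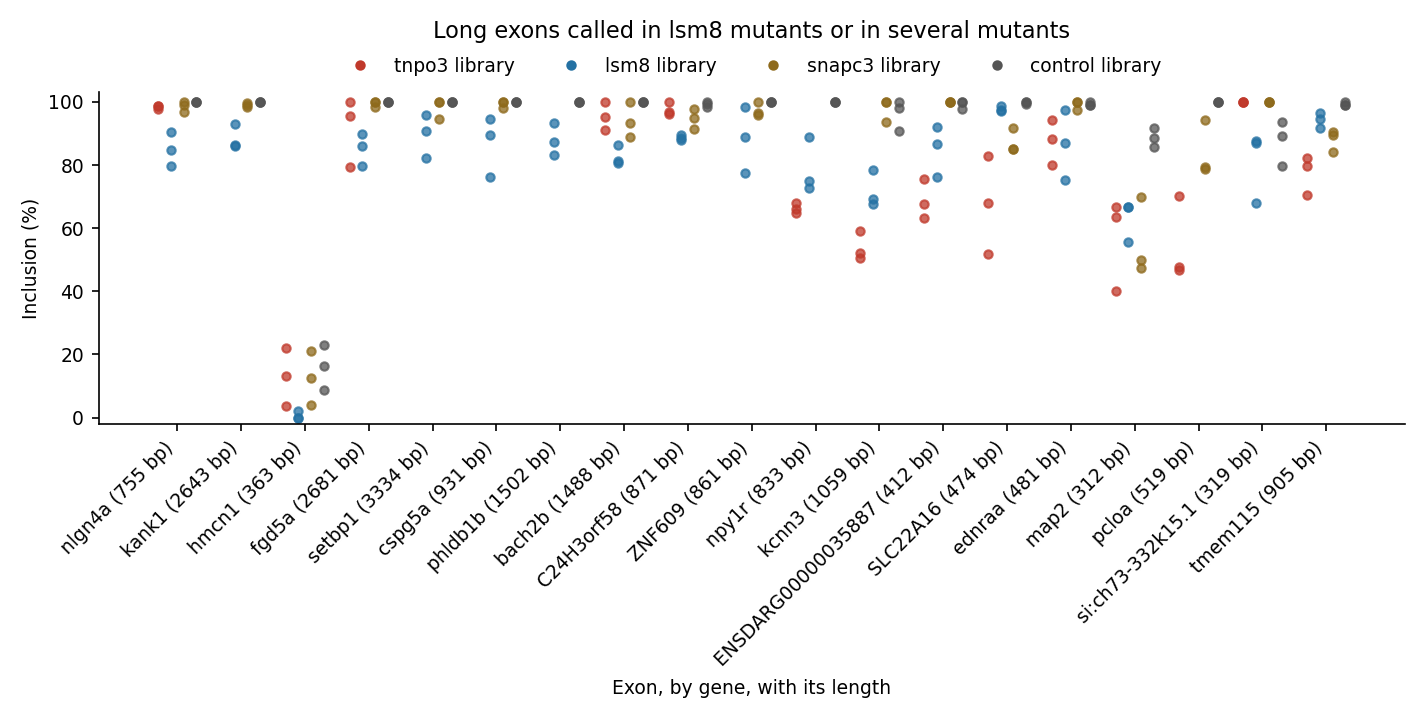
Inclusion (percent) of long exons called in lsm8 mutants or in more than 1 mutant, with 1 point per library and the mutant groups left of the controls; a group is missing where its table does not hold the exon. The kcnn3 exon lies between 50.4% and 59.0% in tnpo3 libraries, between 67.7% and 78.4% in lsm8 libraries, and between 90.9% and 100% in controls.

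The exon of kcnn3, a calcium-activated potassium channel, has 1059 bp (chromosome 16, 25839289 to 25840347). Its inclusion was 59.0%, 50.4% and 52.2% in tnpo3 libraries and 67.7%, 78.4% and 69.1% in lsm8 libraries, against 90.9%, 98.1% and 100% in controls. Both mutants lay below every control, by −42.5 points in tnpo3 mutants (limma adjusted p = 0.000991) and −24.6 points in lsm8 mutants (0.0137), where the call ended without any 1 lsm8 library (0.0514 to 0.110). The 833 bp exon of npy1r, a receptor of neuropeptide Y, was included at 66.0%, 68.0% and 64.7% in tnpo3 libraries and 72.7%, 75% and 88.9% in lsm8 libraries, against 100% in every control (limma adjusted p = 0.00105 and 0.0135). Its lsm8 call ended without the lsm8 library in position 1 (adjusted p = 0.0925) or 2 (0.0714).

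The 481 bp exon of ednraa, an endothelin receptor, was included at 80.0%, 94.2% and 88.4% in tnpo3 libraries and 97.5%, 75.3% and 87.0% in lsm8 libraries, against 99.1%, 99.2% and 100% in controls (limma adjusted p = 0.00741 and 0.0222). In tnpo3 mutants the call ended without the control library in position 3 (adjusted p = 0.0540) or the tnpo3 library in position 1 (0.0533). In lsm8 mutants it ended without the same control library (0.0654) or the lsm8 library in position 2 (0.136) or 3 (0.0948). A 412 bp exon of ENSDARG00000035887 was included at 75.5%, 63.2% and 67.6% in tnpo3 libraries and 76.3%, 86.5% and 92.2% in lsm8 libraries, against 100%, 100% and 97.7% in controls. Its lsm8 call ended without the lsm8 library in position 1 (adjusted p = 0.106) or 2 (0.0611).

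In tnpo3 mutants the tmem115 exon was included at 79.7%, 82.3% and 70.4%, lower than in every control (−21.8 points, limma adjusted p = 0.0018). The 319 bp exon of si:ch73-332k15.1 was called higher in tnpo3 and snapc3 mutants. It was included at 100% in every tnpo3 and every snapc3 library, against 93.6%, 89.1% and 79.5% in controls (12.6 points, limma adjusted p = 0.00579 and 0.038). In lsm8 libraries it was included at 87.7%, 86.9% and 68.0%, which overlapped the controls and was not called (limma adjusted p = 0.617); tnpo3 against lsm8 mutants was called (19.1 points, limma adjusted p = 0.00374). The difference was 8.63 points in both once the control library in position 3 was left out, and in snapc3 mutants the call also ended without the control library in position 2 (adjusted p = 0.075) or any 1 snapc3 library (0.0727 to 0.110).

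The mutants were also set against each other over the 12937 events in all 3 tables, 588 of them long. Between tnpo3 and snapc3 mutants 53 long events were called (9.01%), against 2.60% of all events, with inclusion lower in tnpo3 mutants in 47, a direction called for 1.77% of all events, and higher in 6, called for 0.827%. Between tnpo3 and lsm8 mutants 43 were called (7.31%), against 2.58% of all events, lower in tnpo3 mutants in 36, called for 1.45%, and higher in 7, called for 1.14%. Between lsm8 and snapc3 mutants 9 were called, against 1.11% of all events, and in all 9 inclusion was lower in lsm8 mutants, a direction called for 0.750% of all events; the other direction was called for 0.356%. Leaving out 1 library gave 28 to 50, 21 to 46 and 2 to 13 called events, fewest without the tnpo3 library in position 2, the lsm8 library in position 3, and the lsm8 library in position 1 or 3. The share over all events is not given for these refits. These contrasts carry the background difference too, which cannot be told apart from genotype.

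A 3183 bp exon of si:ch73-138n13.1 was included at 87.5%, 77.4% and 84.6% in tnpo3 libraries, against 100% in every lsm8 and snapc3 library (limma adjusted p = 0.00172 against lsm8 and 0.00141 against snapc3). The 877 bp exon of ssh2a, a cofilin phosphatase, was included at 81.5%, 81.2% and 92.4% in tnpo3 libraries and at 100% in every lsm8 and snapc3 library (limma adjusted p = 0.00233 and 0.00192). The 593 bp exon of GSG2, which in human encodes the haspin kinase, was included at 55.0%, 33.3% and 71.4% in tnpo3 libraries and at 100% in every lsm8 library (limma adjusted p = 0.00328). The 459 bp exon of cep170a, a centrosomal protein, was included at 64.6%, 59.4% and 61.3% in tnpo3 libraries, against 100%, 100% and 95.7% in snapc3 libraries (limma adjusted p = 0.00192). None of these 4 exons had overlapping libraries in the contrast given. The ENSDARG00000035887 exon averaged 68.8% in tnpo3 mutants and 100% in snapc3 mutants (limma adjusted p = 0.00147), and a 448 bp exon of zgc:91860 averaged 80.4% in tnpo3 mutants and 100% in lsm8 mutants (limma adjusted p = 0.00328).

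Between lsm8 and snapc3 mutants the smallest adjusted p values fell on si:ch73-332k15.1, whose exons of 480 and 319 bp overlap on chromosome 8. The 480 bp exon averaged 89.9% in lsm8 mutants and 100% in snapc3 mutants (limma adjusted p = 0.00988). The 319 bp exon averaged 80.9% in lsm8 mutants and 100% in snapc3 mutants (limma adjusted p = 0.0114). The exon of ENSDARG00000035887 averaged 85.0% in lsm8 mutants and 100% in snapc3 mutants (limma adjusted p = 0.0110). A 303 bp exon of pam, which in mammals encodes a peptide-amidating enzyme, averaged 11.4% in lsm8 mutants and 28.4% in snapc3 mutants (limma adjusted p = 0.0271). In all 4 inclusion was lower in lsm8 mutants. The kcnn3 exon (limma adjusted p = 0.0402) and the nlgn4a exon (0.0296), named above for lsm8 mutants, were called in this contrast as well.

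The 5 longest exons lay in xirp2a, plecb, ank3b, syne2a and stard9, all genes of large cytoskeletal proteins, and limma called none in any mutant; by the FDR of the authors' deposited table and 10 points the syne2a exon passed in tnpo3 mutants. The 9085 bp exon of xirp2a, an actin-binding protein of muscle, was included at 67.5%, 54.9% and 76.9% in tnpo3 libraries, against 65.7%, 67.2% and 63.9% in controls, with overlapping groups (limma adjusted p = 0.935). The 6984 bp exon of ank3b, an ankyrin that anchors membrane proteins, was mostly skipped: 23.9%, 18.0% and 19.7% in tnpo3 libraries, against 16.6%, 18.3% and 17.6% in controls (limma adjusted p = 0.785). The 7004 bp exon of plecb was included at 95% or more in every tnpo3 and control library.

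The 6963 bp exon of syne2a, a nesprin of the nuclear envelope, was included at 69.2%, 97.2% and 100% in tnpo3 libraries and at 100% in every control (−11.2 points, limma adjusted p = 0.125). The authors' deposited table gives it an FDR of 0.0445. The 6915 bp exon of stard9 was included at 100%, 97.0% and 100% in tnpo3 libraries and at 100% in every control. At the other end, the 5 long exons least used in controls, in tdrkh, arhgdia, CDPF1, dab2 and limch1a, ran from 0% to 4.13% in control libraries and from 0% to 7.21% in the mutants, and limma called none. Of the genes of called exons, the authors' deposited tables of gene expression listed 2 of 120 in tnpo3 mutants (usp49, log2 fold change 1.23, and PARM1, −2.09), 1 of 20 in lsm8 mutants (setbp1, 1.27) and 0 of 6 in snapc3 mutants. Of the genes of all long exons tested they listed 3 of 1393 in tnpo3 mutants, 16 of 896 in lsm8 mutants and 8 of 780 in snapc3 mutants.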

How the data were processed

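RNA-seq of 12 whole-embryo libraries was analysed from the deposited tables of exon skipping. Per the labels' protocols, total RNA was extracted with TRI Reagent and made into stranded libraries after ribosomal RNA removal. The submitters' processing notes name TopHat2 2.0.13, Bowtie2 2.2.3, featureCounts 1.4.5-p1, limma 3.26.3 and build Zv9. The sources used here do not name the tool that counted splice junctions. The deposited tables give, per event, inclusion and skipping junction reads of 3 mutant and 3 control libraries as lists within a cell, the length of each form, a p-value and an FDR. The lists carry no replicate numbers, so libraries are named by position. The deposited expression tables hold log2 fold changes and average log2 expression by the authors, with their p-value columns, for listed genes alone. The deposited inclusion levels, given as a score per library, were not used; inclusion was recomputed from the reads.

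Log2 odds of inclusion were fitted table by table in R 4.3.3 with limma 3.58.1, with a mean-variance trend and robust moderation. They came from length-normalised reads with a pseudocount of 0.5, over all events with a mean of at least 10 reads. Calls needed an adjusted p below 0.05 and a difference of at least 10 points. A library without reads for an event, as in 25 long events, entered with the pseudocounts alone; such events kept inclusion means over the other libraries. On simulated reads with 200 changed events the fit recovered 99.0% in the tnpo3, 97.5% in the lsm8 and 98.5% in the snapc3 comparison. There a call needed only an adjusted p below 0.05, without the 10 points. The changed events were all long, all lowered and drawn from those with more reads. Of the calls on those reads, 6.60%, 4.88% and 5.29% were false in the same order. These shares describe the simulated reads alone. Whether they hold for the calls reported here was not tested. Mutants were compared with each other in 1 limma fit of all 4 groups.

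The members and gene lists were chosen with earlier results of these data known. Exons are named by rule, counting each exon once: per mutant the 12 called exons of smallest adjusted p and the 3 of largest difference; exons called in more than 1 mutant; the 5 longest; the 5 with lowest control inclusion; called exons of listed genes; and the 4 of smallest adjusted p per pair of mutants. Not every exon of this rule is described above: those of drd3 and cald1, among the largest differences in snapc3 and lsm8 mutants, are not. Some exons were named outside the rule, such as those of zgc:154006, foxn4 and sec24c. The quasi-binomial model was fitted to the inclusion and skipping reads of each library. Total reads of an event were not tested for a difference between groups. No sequence is shown, as no Zv9 genome was used here. Alternatives were a quasi-binomial model, the deposited FDR, other pseudocounts, read and length minimums, and leaving out each library.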

Additional observations from a re-analysis of the deposited data

Results flagged for a closer look

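Each exon below moved in opposite directions in a pair of mutants: every library of one mutant lay below all 3 controls, every library of the other lay above them, and the difference between the mutants passed limma's test at 10 points or more. A call of either mutant against control was not required. Some differences from control were small, such as −2.77 points for nasp in tnpo3 mutants and 3.91 points for aqp4 in lsm8 mutants. The share of all events that meet this rule is not given here, so the exons are listed as description only. Means are given in percent inclusion.

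The nasp gene encodes a histone chaperone. Its 600 bp exon averaged 0.679% in tnpo3 mutants, 11.9% in snapc3 mutants and 3.45% in controls, a difference of −11.2 points between tnpo3 and snapc3 (limma adjusted p = 0.00187). A 564 bp exon of ttna, which encodes the muscle protein titin, averaged 53.1% in tnpo3 mutants, 20.3% in snapc3 mutants and 28.6% in controls (32.8 points between tnpo3 and snapc3, limma adjusted p = 0.00869). A 450 bp exon of CARKD averaged 72.3% in tnpo3 mutants, 41.5% in snapc3 mutants and 52.6% in controls (30.8 points, limma adjusted p = 0.0141). A 430 bp exon of rbm4.2, an RNA-binding regulator of splicing, averaged 84.8% in tnpo3 mutants, 61.9% in snapc3 mutants and 69.7% in controls (22.9 points, limma adjusted p = 0.0429). The last 3 exons were higher in tnpo3 mutants and lower in snapc3 mutants, whereas nasp went the other way.

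The 300 bp exon of arhgef4 averaged 63.1% in tnpo3 mutants, 86.2% in snapc3 mutants, 85.6% in lsm8 mutants and 77.3% in controls. The differences were −23.0 points between tnpo3 and snapc3 (limma adjusted p = 0.0246) and −22.5 points between tnpo3 and lsm8 (limma adjusted p = 0.0298). Between tnpo3 and lsm8 mutants, 4 other exons were lower in tnpo3 and higher in lsm8 mutants. A 415 bp exon of C2H5orf22 averaged 63.7% in tnpo3 mutants, 100% in lsm8 mutants and 92.7% in controls (−36.3 points, limma adjusted p = 0.00516). A 1161 bp exon of MAP4, in human a microtubule-associated protein, averaged 58.4% in tnpo3 mutants, 89.1% in lsm8 mutants and 77.0% in controls (−30.7 points, limma adjusted p = 0.0413). A 725 bp exon of sgms1, a sphingomyelin synthase, averaged 88.1% in tnpo3 mutants, 99.5% in lsm8 mutants and 94.2% in controls (−11.3 points, limma adjusted p = 0.0268). A 421 bp exon of aqp4, a water channel, averaged 89.7% in tnpo3 mutants, 99.7% in lsm8 mutants and 95.8% in controls (−10.0 points, limma adjusted p = 0.0262).

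Between lsm8 and snapc3 mutants this held for a 303 bp exon of si:ch211-260o22.1. It averaged 26.8% in lsm8 mutants, 52.6% in snapc3 mutants and 43.6% in controls (−25.8 points, limma adjusted p = 0.0406). In none of these exons can genotype be told apart from the strain background, which differs between the mutants.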

How the results depend on the processing

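No paired analysis was possible because the deposited lists carry no replicate numbers. Called long events are given for tnpo3, lsm8 and snapc3 against control in that order, beside 133, 23 and 7 as reported. For most alternatives, also between mutants below, the share called over all events is not given. Those counts therefore do not show whether long exons still exceed that share. Without a minimum difference 14.6%, 6.31% and 1.56% of the long events were called, against 6.26%, 4.30% and 2.62% of all events. Length normalisation leaves an event's log2 odds change as it is, but alters its difference in points. The quasi-binomial model called 0, 0 and 0, with an unadjusted p below 0.05 in 366, 153 and 57, where limma had 453, 228 and 94. Those quasi-binomial shares were 22.3%, 14.4% and 6.33% of the long events, against 11.5%, 9.09% and 7.37% of all events. Without length normalisation there were 74, 8 and 2; without a minimum difference 239, 67 and 14; with 20 points 60, 6 and 1; with 1 fit of all groups, limited to events that all 3 tables list, 45 and 6 in tnpo3 and lsm8, where the fits by table called 53 and 10 of those events; with exons from 200 bp 202 in tnpo3 and 14 in snapc3, and from 500 bp 80 and 2; with a pseudocount of 2, 4 in snapc3. Leaving out 1 library gave 106 to 136, 13 to 27 and 4 to 17, the 17 without the control library in position 1. With a skipping read in controls required, an alternative added after the data were seen, 49 and 9 were called in tnpo3 and lsm8. The deposited FDR kept all 3 counts within 1.5 times.

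The median difference (−1.72, −0.75 and −0.39 points) was −1.16, −0.49 and −0.23 from 200 bp, −0.98 and −0.53 (lsm8, snapc3) from 500 bp, −0.76 and −0.42 with 20 reads, −0.73 and −0.37 with each exon once, and −0.85, −0.38 and −0.20 without length normalisation. Leaving out 1 library gave −2.27 to −1.80, −0.90 to −0.72 and −0.55 to −0.32. Each such refit again required a read of each form in the libraries left, so its events differ from those of the full fit. The reported tnpo3 median of −1.72 lies outside its range, which therefore does not show the influence of single libraries alone. Over events of all 3 tables, also added later, it was −1.29, 0.12 and 0.13, and with control skipping −1.10, 0.34 and 0.35. In shorter events it was −0.06, 0.05 and 0.06 over events of all 3 tables, and 0.06, 0.15 and 0.16 with control skipping. Requiring control skipping drops events that can only be lower in the mutant and keeps those that can only be higher. The cause of the sign changes in lsm8 and snapc3 was not tested. Between mutants (53 for tnpo3 against snapc3, 43 for tnpo3 against lsm8, 9 for lsm8 against snapc3) there were 87, 76 and 14 without a minimum difference, 15 with a pseudocount of 2 for lsm8 against snapc3, and 28 to 50, 21 to 46 and 2 to 13 with 1 library left out. Of uncalled exons, leaving out 1 library reversed srsf3a in snapc3 (−2.43 to 0.18 points), both tra2a exons in lsm8 (−3.56 to 0.64 and −4.69 to 0.078) and sfswap in tnpo3 mutants (−0.60 to 0.34). Of exons counted once, 74 of 125, 5 of 20 and 1 of 6 were called whichever library was left out. Intervals and counts of reads cover counting error only.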

Other observations

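The deposited tables of retained introns had few introns beside long exons: 8 in the tnpo3, 5 in the lsm8 and 6 in the snapc3 table. A 417 bp exon of si:ch211-108d22.2 had the largest difference among the long exons of the snapc3 table. It was included at 0% and 33.3% in 2 snapc3 libraries with no reads in the other, against 0%, 98.0% and 100% in controls, and did not pass the test (limma adjusted p = 0.672).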
